A study of Mus musculus with 2 samples.

Results

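Named pseudogenes are gene rows whose symbol carries the ending -ps after the symbol of another gene, the parent, from which the copy is named. The thymic library described here held 1616 such rows among 55487 gene rows, and 609 of them had at least 1 UMI (unique molecular identifier, 1 captured RNA molecule). The 168 rows with 30 or more UMIs over the barcodes that passed quality filters, leaving out 2 copies of Tmem181, are the members described here. For 136 members the symbol before -ps was itself a row of the matrix, which gave 103 distinct parents, and 32 members had no such row. Of the members, 75 had a cytosolic ribosomal protein as parent, and 23 parents had 2 or more members, Rpl21 the most with 5. The rows nearest to the limit were Pcna-ps2, Rps19-ps6 and Tas2r141-ps4 with 30 UMIs each inside it, and Hadhb-ps, Rbm3-ps and Rpl13-ps3 with 29 UMIs each outside it.

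The cells came from thymi of 6-week-old female mice of 3 inbred strains, C57BL/6 (B6), BALB/c and NOD, with 2 mice per strain and no treatment named in the labels. The sort kept medullary thymic epithelial cells that were low in MHC class II (mTEClo) and negative for podoplanin (Pdpn) and CD104, after depletion of CD45-positive cells. Each mouse was stained with its own hashtag antibody, all cells were pooled into 1 droplet library with 3' end counting, and a barcode was given to a mouse when 80% or more of its hashtag UMIs came from 1 of the 6 hashtags. The strains are thus read within 1 capture and the mouse is the replicate, so with 2 mice per strain the p-values rest on a small number of animals. Hashtag and strain are fixed together and cannot be told apart.

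A processed pseudogene arises when a messenger RNA is copied back into DNA and inserted elsewhere in the genome, without introns and usually without the parent's promoter. An unprocessed pseudogene is a duplicated gene that has lost its coding function. Highly expressed housekeeping genes, the ribosomal proteins first among them, have left many processed copies in mammalian genomes, and inbred strains can differ in which copies they carry and in single bases of a copy. Because a copy differs from its parent at few bases, a short read from one can match the other, so a count on a pseudogene row is a count of reads placed there and not by itself a measure of transcription from that locus. How reads that match several places were counted is not given in the sources used here. Mimetic cells are medullary epithelial cells that take on programs of peripheral cell types such as tuft cells, ciliated cells or keratinocytes.

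Of 3447 barcodes, 2527 had at least 500 genes and under 15% mitochondrial UMIs, and 1706 of these were given to a mouse: 215 and 241 to the B6 mice, 413 and 595 to BALB/c, 120 and 122 to NOD. Outside leukocyte-like clusters 1643 barcodes remained, with 2359367 (NOD 2) to 9568203 (BALB/c 2) UMIs per mouse, and sums over these epithelial barcodes carry the comparisons below. In every epithelial cluster the epithelial markers Epcam and Krt8 had a UMI in at least 73.6% and 54.7% of barcodes. Epcam alone did not set these apart. It had a UMI in 94.6%, 92.5% and 90.2% of barcodes of leukocyte-like clusters 5, 12 and 22, and in at most 30.8% in the others. Krt8 was at 29.7%, 36.4% and 47.6% in those 3 clusters. The other 821 passing barcodes, with 40.3% of all gene UMIs, had no mouse and stand apart for several members, as described further on. Levels are given in CPM, a mouse's UMIs of a gene scaled to the usual common total of epithelial UMIs. At 3' ends each molecule is counted once, so levels are not divided by gene length.

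By the GENCODE M21 annotation of the mm10 genome, which held 163 of the 168 identifiers, 104 members were processed pseudogenes and 12 transcribed processed pseudogenes, 15 were unprocessed and 14 transcribed unprocessed pseudogenes. A further 12 were annotated as protein coding in spite of their names, among them Ftl1-ps1, Rps18-ps6, Rps18-ps5, Rpl10-ps3 and Rpl9-ps6. Of 133 members whose annotated transcript was aligned to the parent's, 17 were identical to it over the aligned length and 63 matched at 99% or more of positions, with a median identity of 98.95%. The transcripts of 33 members overlapped another gene on the same strand, where reads of either could be placed on both.

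The sequences of 5 members with large strain differences show how few bases separate a copy from its parent. Each line gives 150 bases of the annotated transcript, 5′ to 3′, with the bases that differ from the parent in capitals, and the parent's line shows the matching stretch of its coding sequence. The stretch of Rps24-ps3 lies at chrX:79195296-79195445 on the plus strand (mm10) and covers bases 250 to 399 of the Rps24 coding sequence, with 3 differing bases. Ndufa12-ps differs from Ndufa12 at 1 base of its stretch at chr5:130188644-130188793, plus strand, bases 286 to 435 of the coding sequence. Hmgb1-ps7 differs at 3 bases of chr7:42021331-42021480, plus strand, bases 496 to 645 of the Hmgb1 coding sequence. Ubb-ps differs at 7 bases of chr14:46084542-46084691, plus strand, bases 645 to 794 of the Ubb coding sequence. Rps18-ps6 differs at 3 bases of chr13:97760133-97760282, minus strand, bases 307 to 456 of the Rps18 coding sequence.
Rps24-ps3: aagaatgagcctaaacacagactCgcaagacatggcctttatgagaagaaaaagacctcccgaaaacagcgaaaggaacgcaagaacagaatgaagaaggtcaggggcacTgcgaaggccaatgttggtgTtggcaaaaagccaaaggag
Rps24: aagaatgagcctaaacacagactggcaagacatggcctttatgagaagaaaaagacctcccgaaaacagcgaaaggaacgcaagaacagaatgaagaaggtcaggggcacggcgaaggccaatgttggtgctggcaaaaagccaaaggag
Ndufa12-ps: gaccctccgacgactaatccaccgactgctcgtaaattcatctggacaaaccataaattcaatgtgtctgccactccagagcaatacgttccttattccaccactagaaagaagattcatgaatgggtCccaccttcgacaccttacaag
Ndufa12: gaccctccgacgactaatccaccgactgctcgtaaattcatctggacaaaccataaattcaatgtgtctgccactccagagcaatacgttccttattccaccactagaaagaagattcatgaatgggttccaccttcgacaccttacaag
Hmgb1-ps7: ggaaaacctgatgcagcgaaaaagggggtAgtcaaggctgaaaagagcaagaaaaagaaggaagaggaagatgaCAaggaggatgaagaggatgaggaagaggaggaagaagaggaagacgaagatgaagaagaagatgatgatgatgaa
Hmgb1: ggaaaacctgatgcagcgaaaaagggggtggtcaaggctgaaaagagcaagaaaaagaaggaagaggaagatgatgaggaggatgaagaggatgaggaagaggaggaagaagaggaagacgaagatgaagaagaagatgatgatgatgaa
Ubb-ps: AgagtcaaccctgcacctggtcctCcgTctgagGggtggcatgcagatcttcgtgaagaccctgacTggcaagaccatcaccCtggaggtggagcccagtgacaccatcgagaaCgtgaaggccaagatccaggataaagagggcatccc
Ubb: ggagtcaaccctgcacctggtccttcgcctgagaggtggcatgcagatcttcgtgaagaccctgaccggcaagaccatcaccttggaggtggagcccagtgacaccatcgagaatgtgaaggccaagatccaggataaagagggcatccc
Rps18-ps6: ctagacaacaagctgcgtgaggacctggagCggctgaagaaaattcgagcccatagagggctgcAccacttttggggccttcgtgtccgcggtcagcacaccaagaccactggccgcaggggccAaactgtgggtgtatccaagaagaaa
Rps18: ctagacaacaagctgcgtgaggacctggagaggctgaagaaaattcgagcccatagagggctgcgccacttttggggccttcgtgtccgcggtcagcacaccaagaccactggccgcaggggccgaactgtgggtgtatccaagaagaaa
All of these copies lie on a chromosome other than that of the parent. Rps24-ps3, Hmgb1-ps7 and Ndufa12-ps are annotated as processed pseudogenes, Ubb-ps as a transcribed processed pseudogene. Ndufa12-ps sits in an intron of Rabgef1 on the same strand, and Rps18-ps6 overlaps an exon of Gm26619, a long noncoding RNA on the opposite strand.

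Members ranged from 30 to 29066 UMIs with a median of 124, and 26 had 1000 or more UMIs while 73 had under 100. Ftl1-ps1, a copy of the ferritin light chain gene, and Ndufb1-ps held 35.3% of the 142265 member UMIs. Ndufb1-ps (29066 UMIs for Ftl1-ps1 against 21178 for this row) is annotated as a noncoding RNA from a promoter shared with Cpsf2, had no parent row, and was found at like levels in all mice, 474 and 409 CPM in B6, 406 and 425 for BALB/c, 516 and 403 in NOD. Behind them came Rps13-ps1 (10848 UMIs), Rpl36-ps12 (5495), Ubb-ps (4982), Rps12-ps10 (4970), Rps18-ps6 (3186), Rpl14-ps1 (2755), Rpl10a-ps1 (2671) and Rps24-ps3 (2666). The summed level of all 168 members was 1351 and 1239 CPM in the B6 mice and 1450 and 1583 for BALB/c. It was 2498 and 2142 for NOD, so that the strains did not overlap and NOD was highest. A large part of the gap between NOD and the other strains came from Rps24-ps3 alone, whose levels are given below.

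Across strains, 31 members changed in the epithelial sums, and all 31 did so between NOD and B6. Against B6, 26 members rose in NOD and 5 fell, where 13.2% and 13.1% of all 15644 genes tested were called in these directions. BALB/c had 8 members higher than B6 and 2 lower (4.93% and 5.03% of all genes), and all 10 were also called between NOD and B6. NOD against BALB/c gave 4 higher and 1 lower (3.59% and 4.61%). Calls are at an adjusted p under 0.05 in edgeR's quasi-likelihood test over all genes. A filter on low counts let 77 of the 168 members into the test and left out 91, and a member can pass it through the strain in which it is high, so these counts describe the members that passed. The 3 contrasts share mice and are not independent of each other.

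These counts depended on single mice. Without B6 2, 19 members were called between NOD and B6. Between BALB/c and B6 the count was 5 without B6 2, 6 without BALB/c 1 and 4 without BALB/c 2, and between NOD and BALB/c it was 3 without BALB/c 2. That last count was 8 without cluster 2, an epithelial cluster in which 5 of 71 barcodes had a mouse. With leukocyte-like barcodes included, 84 members were tested and 11, 29 and 5 were called in BALB/c against B6, NOD against B6 and NOD against BALB/c, beside 7.61%, 22.9% and 6.23% of all genes. There the first count was 6 without either B6 mouse, 2 without BALB/c 1 and 1 without BALB/c 2. The second was 15 without B6 1 and 18 without B6 2 or without NOD 1, and the third was 2 without either BALB/c mouse.

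**Figure D1:**
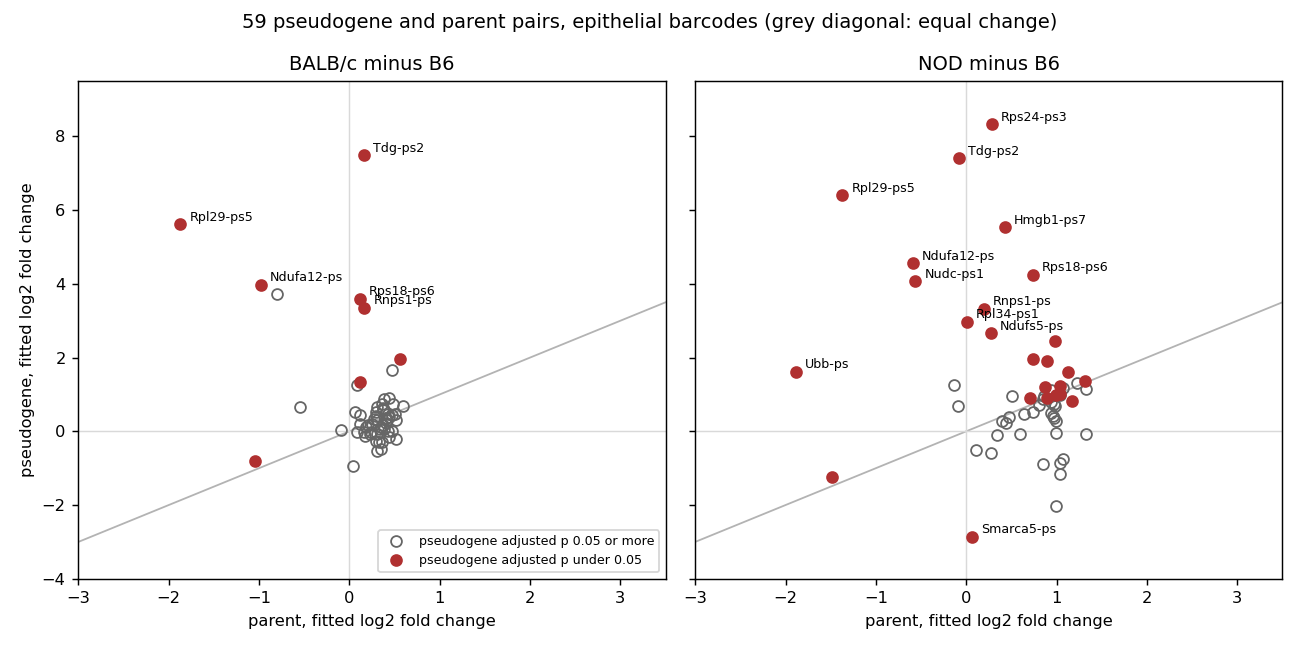
Log2 fold change of the pseudogene (vertical axis) against that of its parent (horizontal axis) in the epithelial sums, for the 59 pairs in which both entered the fit, BALB/c against B6 on the left and NOD against B6 on the right; 1 point is 1 pair and the line marks equal changes, drawn on axes of unequal scale. Filled points are pseudogenes with an adjusted p under 0.05, and the fitted values of Tdg-ps2, with no UMI in B6, are no measured size. In BALB/c against B6 40 of the 59 pairs lie within 0.5 of the line and in NOD against B6 29 do, and a few pseudogenes, with Rps24-ps3 at 8.32 in NOD against B6 the highest, lie far above it.

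Genes of the translation machinery, the parents of 75 of the 168 members, were mostly higher in NOD than in B6. Of 92 cytosolic ribosomal protein genes 84 were tested, and 75 were higher and 1 lower in NOD than in B6 with a median log2 difference of 0.92, against -0.04 over all genes. NOD exceeded BALB/c in 34 of them with none lower (median 0.55, all genes -0.02), and BALB/c exceeded B6 in 4 and fell below it in 4 (median 0.37, all genes 0.00). The 101 tested parents gave 59 higher and 8 lower in NOD against B6, 22 and 2 in NOD against BALB/c, and 6 and 6 in BALB/c against B6. By DESeq2's test NOD against BALB/c gave 44 and 2, and BALB/c against B6 gave 17 and 7. The tested members had medians of 0.74, 0.35 and 0.30 in the same order. Of the 26 members higher in NOD than in B6, 16 had a ribosomal protein parent, out of 38 such members tested.

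Such sums mix the level per cell with the makeup of the epithelium, and fewer cells of a type and less RNA per cell cannot be told apart in them. Cluster 13, an unnamed epithelial cluster with Aire among its leading genes and 6 of 7 proliferation markers detected above the other clusters, held 24 and 20 of the 112 and 121 epithelial barcodes of the NOD mice, 10 and 8 of 211 and 225 in B6, and 24 and 53 of 397 and 577 in BALB/c. Within cluster 13, ribosomal protein genes gave 1 higher and 1 lower in NOD than in BALB/c (median 0.23). Within the immature mTEC-like class the ribosomal protein genes went the other way, 1 higher and 45 lower in NOD than in BALB/c (median -0.33), and within tuft-like cells 44 were higher and 4 lower in BALB/c than in B6 (median 0.37). The part of the makeup in the group's change in the sums was not tested.

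Copies that were high in NOD and near absent in the other strains included the largest changes. Rps24-ps3, a copy of the small-subunit ribosomal protein gene Rps24, was at 1.06 and 1.89 CPM in the B6 mice, 3.33 and 5.85 for BALB/c, and 464 and 439 for NOD. The NOD mice stood far above the other 4, which lay within a few CPM of each other. The log2 difference was 8.32 (SE 0.33, adjusted p = 0.000155) against B6 and 6.67 (SE 0.27, adjusted p = 0.00036) against BALB/c, while BALB/c against B6 missed the threshold (1.65, SE 0.42, adjusted p = 0.053). Rps24 itself was at 2113 and 1917 CPM in B6, 2629 and 3025 for BALB/c and 2446 and 2174 for NOD, so that NOD lay between the other strains. Its log2 difference between NOD and B6 was 0.28 (SE 0.14, adjusted p = 0.18). The copy thus took 0.050% and 0.098% of the pair's UMIs in B6, 0.126% and 0.193% for BALB/c, and 15.95% and 16.8% in NOD.

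Hmgb1-ps7, a copy of the gene for the chromatin protein HMGB1, was at 1.06 and 0.539 CPM in B6, 0.605 and 0.836 for BALB/c, and 39.3 and 32.6 for NOD. B6 and BALB/c overlapped, and both NOD mice lay above them. It rose in NOD by 5.53 against B6 (SE 0.39, adjusted p = 0.00051) and by 5.66 against BALB/c (SE 0.36, adjusted p = 0.00083) on the log2 scale. Hmgb1 was between 383 and 548 CPM in all mice and was not called in any contrast. The copy's share of the pair was 6.70% and 6.27% in NOD and 0.14% to 0.243% in the other mice.

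Ubb-ps and its parent Ubb, 1 of the genes that encode ubiquitin as a chain of repeats, changed in opposite directions. Ubb-ps was at 40.3 and 41.2 CPM in B6, 41.7 and 51.6 for BALB/c, and 124 and 110 for NOD. Ubb was at 838 and 904 CPM in B6, 954 and 1081 for BALB/c, and 244 and 199 for NOD. NOD thus was the high strain for the copy and the low strain for the parent, without overlap. The copy rose by 1.61 (SE 0.16, adjusted p = 0.0013) and the parent fell by 1.89 (SE 0.15, adjusted p = 0.00065) in NOD against B6, with 1.42 and -2.10 against BALB/c (adjusted p = 0.0058 and 0.0013). The sum of the pair was also lowest in NOD, 368 and 309 CPM against 879 to 1133 CPM in the other mice, and the copy's share was 33.8% and 35.5% in NOD against 4.19% to 4.59% elsewhere.

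Ndufs5-ps and Rpl34-ps1 showed a smaller form of this pattern and were singled out after their values were seen. Ndufs5-ps, from a subunit gene of respiratory complex I, was at 1.06 and 2.16 CPM in B6, 1.21 and 2.4 for BALB/c, and 13.4 and 5.93 for NOD (log2 difference to B6 2.66, SE 0.66, adjusted p = 0.026). Rpl34-ps1 was at 1.06 and 0.539 CPM in B6, 0.907 and 1.57 for BALB/c, and 4.6 and 7.63 for NOD (2.98, SE 0.68, adjusted p = 0.02). Neither parent was called between NOD and B6. The differences of both copies between NOD and BALB/c missed the threshold narrowly (adjusted p = 0.052 and 0.053).

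**Figure D2:**
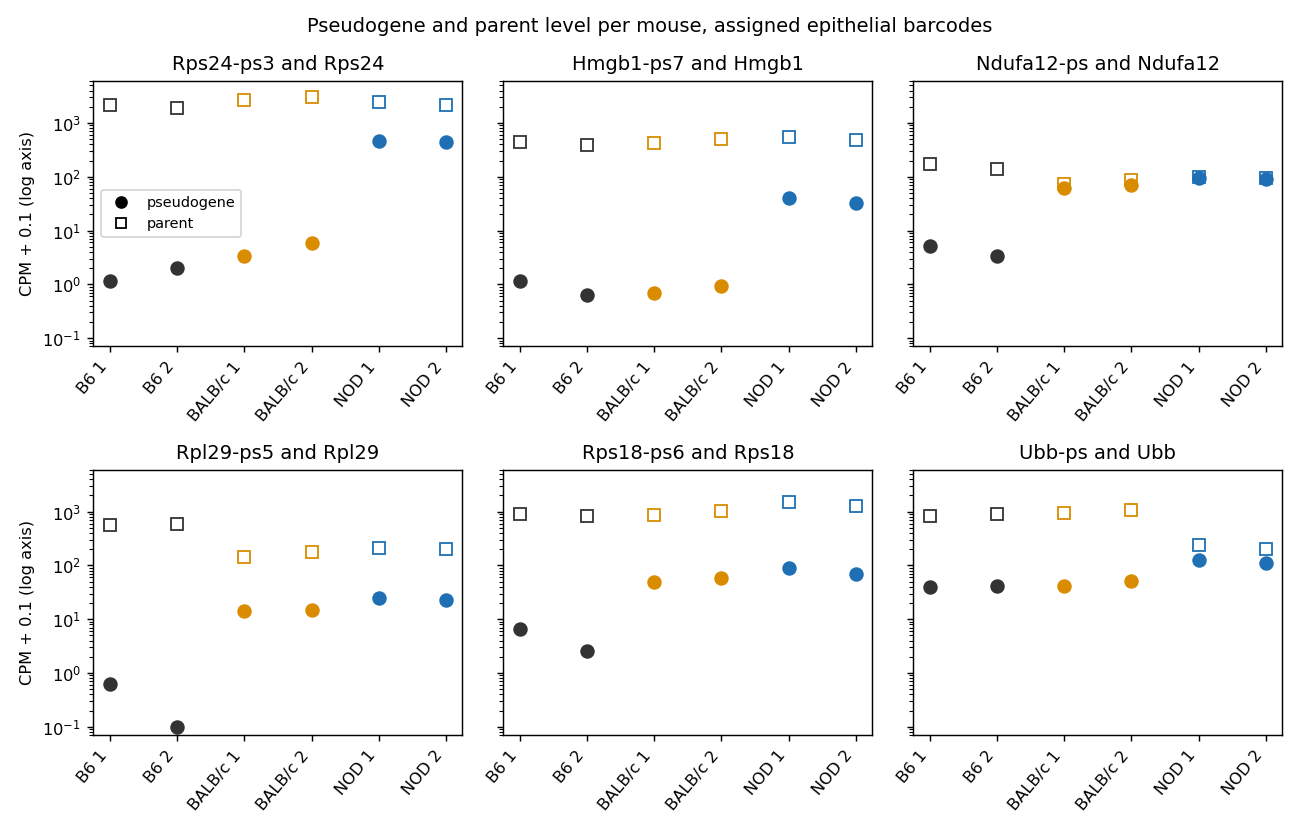
Level of 6 pseudogenes (filled circles) and their parents (open squares) in each of the 6 mice, in CPM of the epithelial sum plus 0.1 on a log axis, 1 point per mouse. Rps24-ps3 and Hmgb1-ps7 stand high in the NOD mice only, Ndufa12-ps and Rpl29-ps5 are low in the B6 mice, and Ubb falls in NOD where Ubb-ps rises.

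A second set was low in B6 and higher in BALB/c and NOD. Ndufa12-ps, from a subunit gene of respiratory complex I, was at 5.04 and 3.23 CPM in B6, 62.7 and 69.0 for BALB/c, and 95.4 and 89.8 for NOD. Ndufa12 was at 170 and 139 CPM in B6, 72.0 and 85.8 for BALB/c, and 99.2 and 93.7 for NOD. B6 was the lowest strain for the copy and the highest for the parent, with no overlap in either. The copy rose by 3.97 (SE 0.21, adjusted p = 0.00057) in BALB/c and by 4.56 (SE 0.22, adjusted p = 0.00019) in NOD against B6, and the parent fell by 0.98 (SE 0.15, adjusted p = 0.012) and 0.59 (SE 0.16, adjusted p = 0.032). The summed level of the pair was 175 and 142 CPM in B6, 135 and 155 for BALB/c, and 195 and 184 for NOD. B6 and BALB/c overlapped in it and both NOD mice lay above them. The copy took 2.88% and 2.27% of the pair in B6, 46.6% and 44.6% for BALB/c, and 49.0% in each NOD mouse.

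Rpl29-ps5, from a large-subunit ribosomal protein gene, had 2 UMIs in B6 1 and 0 in B6 2 against 92 and 144 for BALB/c and 58 and 53 for NOD. Over the strains' sums this is a ratio of 54.6 for BALB/c (95% counting interval 14.9 to 453) and 87.4 for NOD (23.6 to 731) against B6. Rpl29 fell from 573 and 579 CPM in B6 to 144 and 175 in BALB/c (log2 difference -1.87, SE 0.14, adjusted p = 0.0016) and 213 and 206 in NOD (-1.37, SE 0.14, adjusted p = 0.0014). The sum of the Rpl29 pair was highest in B6, at 573 and 579 CPM in B6 against 157 to 238 CPM in the other mice. Ndufa12, Rpl29 and Ubb were the 3 pairs called in opposite directions between NOD and B6.

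Rps18 had 2 members, both annotated as protein coding and both low in B6. Rps18-ps6 was at 6.37 and 2.42 CPM in B6, 50.04 and 58.3 for BALB/c, and 90.4 and 67.8 for NOD, a rise of 3.60 (SE 0.37, adjusted p = 0.0044) and 4.24 (SE 0.37, adjusted p = 0.0013) against B6. Rps18-ps5 was at 6.37 and 5.66 CPM in B6, 13.9 and 17.0 for BALB/c, and 22.2 and 22.5 for NOD, a rise of 1.35 (SE 0.24, adjusted p = 0.017) and 1.97 (SE 0.25, adjusted p = 0.0026). The parent, at 827 to 918 CPM in B6 and 872 to 1037 in BALB/c, was called higher in NOD only (0.73, SE 0.15, adjusted p = 0.014). The BALB/c call of Rps18-ps5 was lost when any 1 of the 4 B6 and BALB/c mice was left out.

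Rps7-ps3 and Rps2-ps10 moved with their ribosomal protein parents and beyond them. Rps7-ps3 rose from 5.57 and 5.12 CPM in B6 to 19.1 and 23.4 for BALB/c and 28.9 and 26.7 for NOD (log2 difference 1.97 and 2.46, SE 0.23 and 0.24, adjusted p = 0.0047 and 0.0012), where Rps7 differed by 0.56 and 0.99. Rps2-ps10 was at 14.6 and 8.35 CPM in B6, 22.4 and 32.7 for BALB/c, and 46.0 and 36.0 for NOD (NOD against B6 1.92, SE 0.34, adjusted p = 0.0085), with Rps2 at 0.89. Rps7-ps3 overlaps Rpl7a-ps12 on the same strand.

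Several copies of genes outside the ribosome had few or no UMIs in B6. Rnps1-ps, from the gene of an RNA-binding protein of the exon junction complex, had 4 and 3 UMIs in B6, 59 and 104 for BALB/c, and 26 and 17 for NOD (log2 difference 3.35 and 3.32, SE 0.44 and 0.47, adjusted p = 0.0073 and 0.0036), with Rnps1 between 48.3 and 57.6 CPM in all mice. Tdg-ps2, from the thymine DNA glycosylase gene, had no UMI in either B6 mouse against 27 and 52 for BALB/c and 7 and 13 for NOD. Set against a floor of 3 counts over the strain's mice, it was at least 12.2-fold higher in BALB/c and at least 10.5-fold higher in NOD. Serpina3e-ps, an unprocessed pseudogene of the serine protease inhibitor cluster, likewise had no UMI in B6, 26 and 44 for BALB/c and 24 and 13 for NOD, at least 10.8-fold and 19.4-fold higher. Both were called in both contrasts, and both BALB/c calls were lost when any 1 of the 4 mice compared was left out. That of Tdg-ps2 was also lost with all assigned barcodes, where its log2 difference was 3.64 (SE 0.88), against a fitted 7.49 (SE 1.14) in epithelial barcodes. Of the 102 UMIs of Serpina3e-ps in classes, 47 lay in immature mTEC-like cells, which numbered 4 and 13 in the B6 mice, 78 and 155 for BALB/c and 54 and 59 for NOD. Cluster 13, its next class, had 10 and 8 barcodes in B6 against 24 and 53 for BALB/c and 24 and 20 for NOD, and the part of this makeup in the difference was not tested. The Rnps1-ps call was lost without BALB/c 2. Nudc-ps1, from a gene of the dynein-associated protein NudC, had 2 UMIs in B6 against 62 for BALB/c and 22 in NOD, ratios of 14.3 (3.80 to 121) and 17.3 (4.26 to 152). It was called in NOD (adjusted p = 0.03) and not in BALB/c (adjusted p = 0.063), and the call was lost without B6 2, without either BALB/c mouse and without NOD 1.

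Only 5 members fell in NOD against B6. Btnl5-ps, a butyrophilin-like pseudogene in the MHC region of chromosome 17 (34488070 to 34497429, minus strand, mm10), had 29 and 49 UMIs in B6, 1 and 4 for BALB/c, and none in NOD. It was at least 16.5-fold lower in NOD than in B6, and its log2 difference between BALB/c and B6 was -4.998 (SE 0.65, adjusted p = 0.01). That BALB/c call was lost without B6 2 and without either BALB/c mouse. Its levels were highest in microfold-like cells (39.8 CPM in B6 2) and neuroendocrine-like cells (10.8 and 23.96 CPM in B6). Microfold-like barcodes numbered 9 and 17 in the B6 mice, 2 and 5 in BALB/c and none in NOD, and neuroendocrine-like barcodes 20 and 30, 10 and 6, and 1 and 3. In enterocyte-hepatocyte-like cells, which B6 and BALB/c held in like numbers, Btnl5-ps was at 12.9 and 20.8 CPM in the B6 mice and at 0 and 6.83 in the BALB/c mice. Smarca5-ps, from the gene of a chromatin remodelling ATPase, was at 13.3 and 9.70 CPM in B6, 5.75 and 6.38 for BALB/c, and 0.837 and 2.12 for NOD (NOD against B6 -2.85, SE 0.50, adjusted p = 0.0076). The strains did not overlap, while Smarca5 lay between 137 and 150 CPM in all mice. Of the 184 UMIs of Smarca5-ps in classes, 132 lay in tuft-like cells. Tuft-like barcodes numbered 112 and 91 in the B6 mice, 117 and 170 for BALB/c and 8 and 10 for NOD. The part of this makeup in the fall of Smarca5-ps was not tested.

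Gpr137b-ps and Gpr137b, a lysosomal membrane protein gene and its duplicate on the same chromosome, fell together. The pseudogene was at 32.1 and 38.8 CPM in B6, 21.5 and 19.9 for BALB/c, and 13.8 and 14.4 for NOD, and the parent at 27.1 and 35.8, 16.2 and 14.6, and 10.04 and 11.02. The log2 differences to B6 were -0.80 and -1.24 for the pseudogene (SE 0.17 and 0.19, adjusted p = 0.032 and 0.005) and -1.05 and -1.49 for the parent (SE 0.20 and 0.23, adjusted p = 0.023 and 0.005). It was the only pair called in the same direction between BALB/c and B6, and the pseudogene's BALB/c call was lost when any 1 of the 4 mice compared was left out, with DESeq2's test and at a hashtag share of 90%. The pseudogene's share of the pair stayed between 52.0% and 57.9%. Tuft-like cells, with 8 and 10 barcodes in the NOD mice against 112 and 91 in B6, held 412 of the 624 UMIs of Gpr137b-ps in classes. The part of this makeup in the fall of the pair was not tested.

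Tas2r142-ps5, a pseudogene of the bitter taste receptor cluster on chromosome 6, was at 10.6 and 14.6 CPM in B6, 20.1 and 28.4 for BALB/c, and 1.26 and 3.39 for NOD. It fell in NOD by 2.34 against B6 (SE 0.47, adjusted p = 0.013) and by 3.28 against BALB/c (SE 0.44, adjusted p = 0.01). The first call was lost without B6 2 or NOD 1 and the second without BALB/c 2. Tuft-like cells, which held nearly all of its UMIs, made up 8 and 10 of the 112 and 121 NOD barcodes against 112 and 91 of 211 and 225 in B6 and 117 and 170 of 397 and 577 in BALB/c. The level per tuft-like cell is given below. Mgam2-ps, named for an intestinal disaccharidase and singled out after its values were seen, was the last of the 5. It was at 14.8 and 63.3 CPM in B6, 5.90 and 9.72 for BALB/c, and 1.67 and 2.12 for NOD (NOD against B6 -4.26, SE 0.97, adjusted p = 0.029), and microfold-like cells, its richest class, numbered 9 and 17 in B6, 2 and 5 for BALB/c and none in NOD.

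In contrast to these, a group of ribosomal copies kept a similar share of their pair in all mice while copy and parent rose together. Rpl10a-ps1, identical to Rpl10a over its whole aligned transcript, was at 43.2 and 28.03 CPM in B6, 45.5 and 48.7 for BALB/c, and 85.8 and 86.5 for NOD. It rose by 1.36 against B6 (SE 0.21, adjusted p = 0.0051) and by 0.97 against BALB/c (SE 0.20, adjusted p = 0.035), next to 1.32 and 0.88 for Rpl10a, and its share of the pair lay between 4.25% and 5.62% in all mice. The call against BALB/c was lost when either BALB/c or either NOD mouse was left out. Rps10-ps1 (0.98, SE 0.18, adjusted p = 0.0091), Rps23-ps1 (1.02, SE 0.19, adjusted p = 0.0094) and Rpl9-ps6 (0.90, SE 0.17, adjusted p = 0.011) rose in NOD against B6 by amounts within 0.02 of their parents' 0.99, 1.04 and 0.89. Rps10-ps1 lost its call without B6 2 and Rpl9-ps6 without B6 1. Rpl10-ps3, Rps26-ps1, Rps15a-ps5, Rpl36-ps2 and Rpl31-ps8 also rose in NOD together with their parents, by 0.83 to 1.60. The remaining calls were H2-T-ps, an MHC class I pseudogene, and Olfr1372-ps1, an olfactory receptor pseudogene, which rose by 2.02 (SE 0.57, adjusted p = 0.039) and 3.07 (SE 0.74, adjusted p = 0.023) in NOD against B6.

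By pairs, 59 copies entered the fit together with their parents. Between NOD and B6, 14 pairs were called in the same direction and 3 in opposite directions, in 8 pairs the copy alone was called and in 26 the parent alone. The same counts were 1, 2, 5 and 3 between BALB/c and B6, and 1, 1, 2 and 20 between NOD and BALB/c. The median size of the gap between the copy's and the parent's log2 difference was 0.55, 0.30 and 0.24 in these contrasts, and 23 pairs had a gap of 1 or more in at least 1 of them. The log2 ratio of copy to parent within each mouse was also compared over the 3 strains by an exact permutation test, which with 90 arrangements cannot go below p = 0.06667. In all 136 pairs were compared, and 24 reached that smallest p, among them Rps24-ps3, Hmgb1-ps7, Ndufa12-ps, Rpl29-ps5, Smarca5-ps, Rps13-ps1 and Rpl36-ps12. Adjusted over the pairs, the exact permutation p was 0.378 at the lowest, so no ratio passed a threshold of 0.05.

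Among the 91 members that were too low to be tested, several had UMIs in some strains only. Nlrp5-ps, of a family of innate immune sensors and egg proteins, had none in B6 and 47 in BALB/c, at least 7.24-fold higher there. Nlrp1c-ps had 21 UMIs in B6 and none in BALB/c, at least 15.1-fold lower, and none in NOD, at least 4.44-fold lower. Naip3-ps1, from the same class of sensors, had 15 UMIs in B6 and 1 in BALB/c, a ratio of 32.4 (4.99 to 1366). Pcna-ps2, from the gene of the replication clamp, had 12 UMIs in NOD against 1 in B6, a ratio of 18.9 (2.80 to 808), and 2 in BALB/c, a ratio of 20.45 (4.55 to 188). These members were chosen after their values were seen, and their intervals and floors cover counting error only. Neuroendocrine-like cells, with 12 of the 14 UMIs of Naip3-ps1 in classes, numbered 20 and 30 for B6 against 10 and 6 for BALB/c. Cluster 6, richest in Nlrp5-ps, held 5 and 6 B6 barcodes against 62 and 67 for BALB/c. Cluster 13, a larger part of the NOD barcodes, held 5 of 9 such UMIs of Pcna-ps2. Keratinocyte-like cells, with 13 of 20 for Nlrp1c-ps, were not fewer in BALB/c (22 and 42) than in B6 (10 and 22). The part of makeup in these differences was not tested.

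Cell classes came from clusters made without the members, their parents, Xist and the ribosomal protein, mitochondrial and H2 genes, and were named from marker lists. Levels by class are descriptions. Rps24-ps3 was at 665 and 623 CPM in cluster 13 of the NOD mice, 305 and 262 in their immature mTEC-like cells, 525 in keratinocyte-like and 454 in tuft-like cells of NOD 2, and at 34.5 or less in every class of the other mice. Within cluster 13 it rose by 6.96 in NOD against BALB/c (SE 0.28, adjusted p = 7.2e-06), and within immature mTEC-like cells by 6.51 (SE 0.27, adjusted p = 2.6e-18). Its parent Rps24 fell by 0.99 in immature mTEC-like cells (SE 0.09, adjusted p = 4.6e-10), beside a median of -0.33 over ribosomal protein genes there. In cluster 13 Rps24 was not called (-0.43, SE 0.11, adjusted p = 0.12). Hmgb1-ps7 and Ubb-ps were the other members called in these classes, 3 of 36 tested in cluster 13 (1.25% of all genes) and 3 of 32 in immature mTEC-like cells (8.42%), all higher in NOD. Hmgb1-ps7 rose by 5.99 and 4.10 and Ubb-ps by 1.65 and 1.08 in the 2 classes, while Ubb fell by 2.15 and 2.40. Markers of that class include Pdpn and the gene of CD104 (Itgb4), which the sort selected against. The immature mTEC-like class joins clusters 7 and 8, with 41 and 86 barcodes of cluster 7 and 37 and 69 of cluster 8 in BALB/c against 17 and 17 and 37 and 42 in NOD, so cluster 8 held most of the NOD barcodes and cluster 7 most of those of BALB/c.

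In tuft-like cells, where B6 and BALB/c could be compared, 9 of 37 members were called (21.5% of all genes), 8 higher and 1 lower in BALB/c. Rpl29-ps5 had no tuft-like UMI in B6 and 25 and 32 in BALB/c. Ndufa12-ps rose from 0.74 and 2.35 CPM to 42.4 and 54.9 (log2 difference 4.91, SE 0.42, adjusted p = 4.7e-06) and Rps18-ps6 from 0.74 and 0.782 to 36.4 and 43.4 (5.56, SE 0.46, adjusted p = 4.0e-06). In enterocyte-hepatocyte-like cells the BALB/c differences of both missed the threshold (Ndufa12-ps 5.58, SE 0.73, adjusted p = 0.051, and Rps18-ps6 4.43, SE 0.92, adjusted p = 0.14), as did that of Ndufa12-ps in keratinocyte-like cells (3.08, SE 0.75, adjusted p = 0.13). In tuft-like cells Smarca5-ps fell from 26.6 and 27.4 CPM to 10.98 and 13.21 (-1.19, SE 0.27, adjusted p = 0.0076). The other calls were Rnps1-ps, Rps7-ps3, Rpl9-ps6, Ube2d-ps and Tas2r142-ps5. The tuft-like class joins clusters 3, 4, 11 and 19, and these were unevenly filled. Cluster 3, with the taste genes Tas2r105 and Gnat3 among its leading genes, held 11 of 112 and 12 of 91 tuft-like barcodes of the B6 mice and 31 of 117 and 54 of 170 of the BALB/c mice. Cluster 19 held 1 and 0 against 21 and 23, cluster 4 held 41 and 33 against 23 and 40, and cluster 11 held 59 and 46 against 42 and 53.

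Tas2r142-ps5 itself was a marker of tuft-like cells, the chemosensory cells that use taste receptor signalling, with 491 of its 508 UMIs in named classes there. In that class it was at 28.1 and 42.3 CPM in B6, 65.9 and 88.1 for BALB/c, and 28.6 in NOD 2 (7 UMIs). BALB/c lay above B6 without overlap (log2 difference 1.10, SE 0.22, adjusted p = 0.0041), with the uneven cluster 3 just given, whose part in this was not tested, and NOD 2 lay within the range of B6. Tas2r145-ps3 had 39 of 42 UMIs in tuft-like cells, at 2.71 to 24.5 CPM. Gpr137b-ps and Gpr137b were also highest in tuft- and microfold-like cells, with 45.0 to 75.1 CPM for the pseudogene and 37.9 to 78.2 for the parent in tuft-like cells. Within tuft-like cells Gpr137b-ps was at 54.0 and 75.1 CPM in B6, 47.9 and 45.0 for BALB/c and 57.2 in NOD 2, and it was not called there (-0.52, SE 0.19, adjusted p = 0.062), while Gpr137b fell (-0.85, SE 0.19, adjusted p = 0.0071).

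Other members with an uneven distribution over the classes, chosen after their values were seen, were pseudogenes of tissue-restricted families. Mgam2-ps was at 423 CPM in the microfold-like cells of B6 2, at 18.8 to 72.9 in enterocyte-hepatocyte-like cells and at 43.2 and 82.1 in neuroendocrine-like cells of B6, against 14.4 or less elsewhere. Smkr-ps was at 12.8 to 37.4 CPM in ciliated-like cells and at 6.54 or less elsewhere. Sprr2j-ps, of the small proline-rich proteins of the cornified envelope, was at 67.3 and 62.0 CPM in the keratinocyte-like cells of B6 and at 0 and 2.55 in those of BALB/c (-4.99, SE 0.72, adjusted p = 0.016). The 89 UMIs of Sprr2j-ps lay in 17 barcodes, with 33 UMIs in a single barcode, so these levels rest on few cells. Of its 85 UMIs in assigned epithelial barcodes, 50 lay in the classes compared here, 40 of these in keratinocyte-like cells. Sprr2j-ps and Rps18-ps6 were the 2 of 11 tested members called in keratinocyte-like cells (1.05% of all genes). In enterocyte-hepatocyte-like cells no member of 14 was called between BALB/c and B6 by edgeR (0.354% of all genes), 2 had an unadjusted p under 0.05, and the count was 0 with DESeq2 size factors and 2 without the filter on low counts. Of the 96 UMIs of Mettl4-ps1, 68 came from a single barcode, so its level of 76.9 CPM in cluster 13 of NOD 1 describes that barcode. Ndufb1-ps was at 135 CPM or more in every class and mouse.

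**Figure D3:**
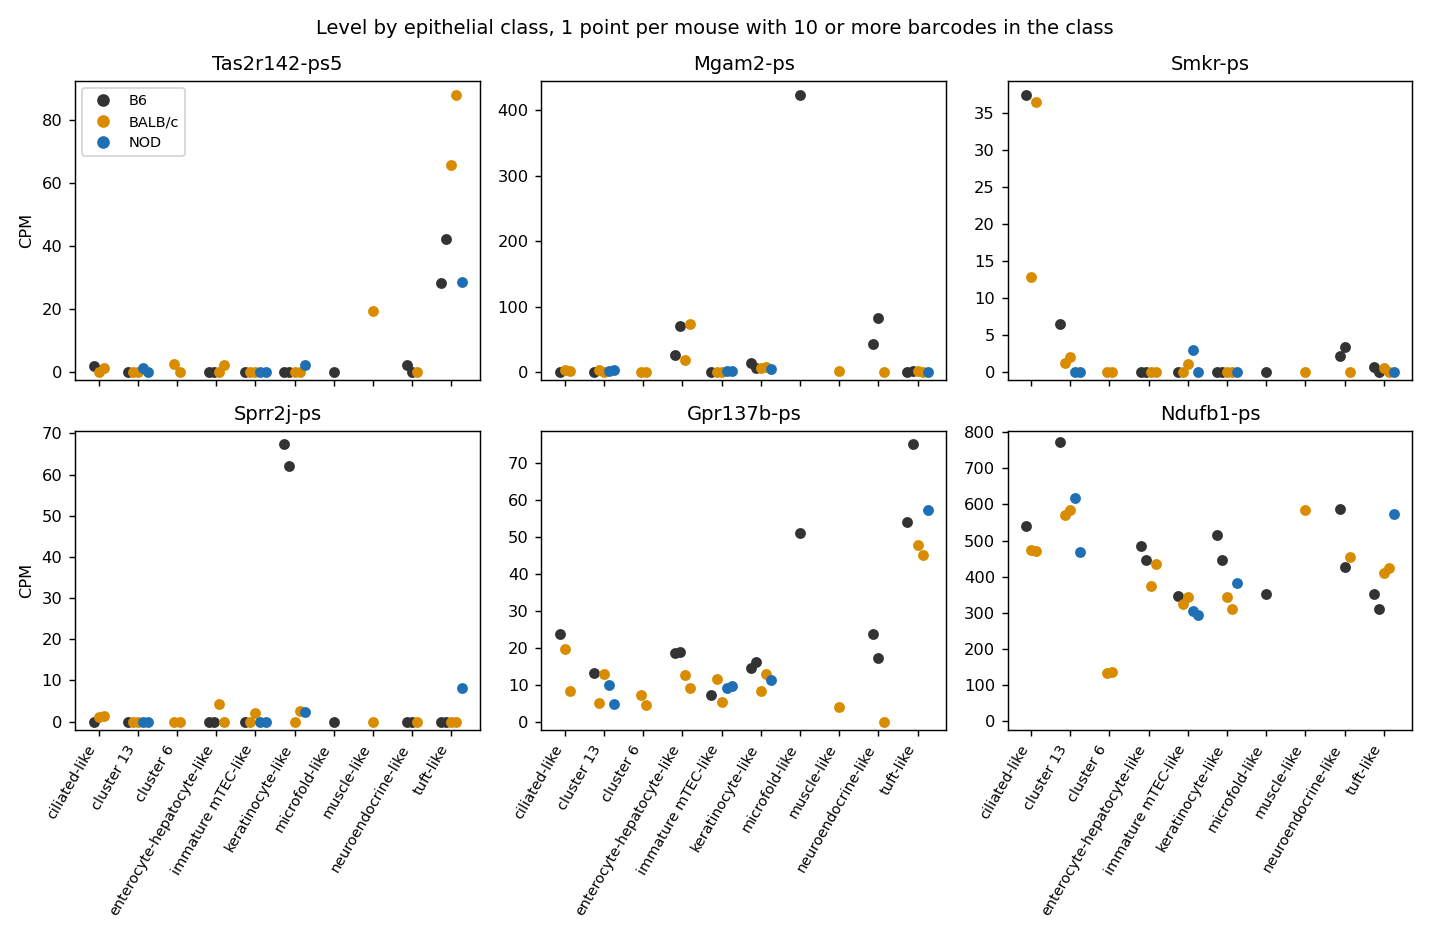
Level in CPM (vertical axis, its own linear scale in each panel) of 6 members by epithelial class (horizontal axis), 1 point per mouse with 10 or more barcodes in the class, coloured by strain. Tas2r142-ps5 is high in tuft-like cells, Smkr-ps in ciliated-like cells and Sprr2j-ps in the keratinocyte-like cells of B6, Mgam2-ps reaches 423 in the microfold-like cells of B6 2, Gpr137b-ps is high in tuft-like and microfold-like cells, and Ndufb1-ps is present throughout.

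The barcodes without a mouse held an unequal part of the members. Of the 168 members, 30 (17.9%) had 80% or more of their UMIs there, against 531 of 19832 genes with 30 or more UMIs (2.68%). For Ftl1-ps1 the part was 84.9%. Its share of the pair with Ftl1 was read over barcodes with at least 10 UMIs of the pair. The median share was 1.04% over 653 assigned epithelial barcodes and 86.3% over 53 assigned leukocyte-like barcodes. It was 8.20% over 214 unassigned epithelial barcodes and 95.4% over 295 unassigned leukocyte-like barcodes. The 214 unassigned epithelial barcodes were split, with 94 under 5% and 93 at 80% or more, so their median describes few of them. In cluster 2, an epithelial cluster with 4 of 5 markers of Aire-expressing mTEC in which 5 of 71 barcodes had a mouse, the share was 94.6%, while it was 2.84% in cluster 13 with 139 of 151 barcodes assigned. Leukocyte-like clusters ranged from 51.4% to 94.4% and the other epithelial clusters from 2.19% to 26.6%. Rps13-ps1 followed the same order, at 24.6% to 37.4% of its pair in leukocyte-like clusters, 34.7% in cluster 2 and 0.54% to 11.7% elsewhere.

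**Figure D4:**
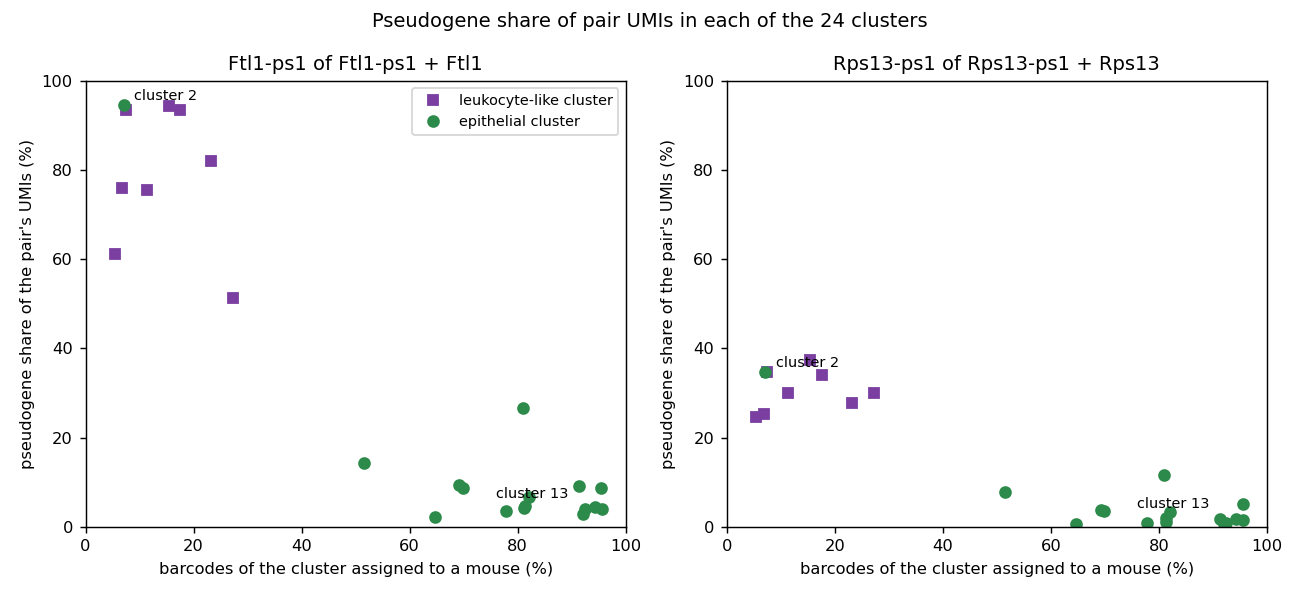
Pseudogene share of the pair's UMIs in percent (vertical axis) against the percent of a cluster's barcodes that were given to a mouse (horizontal axis), for Ftl1-ps1 on the left and Rps13-ps1 on the right; 1 point is 1 of the 24 clusters, squares are leukocyte-like and circles epithelial. Cluster 2, with few assigned barcodes, lies with the leukocyte-like clusters at 94.6% and 34.7%, apart from the other epithelial clusters.

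Hashtag depth differed between these barcode groups. The median number of hashtag UMIs was 3290 in assigned epithelial, 4032 in assigned leukocyte-like, 365 in unassigned epithelial and 89 in unassigned leukocyte-like barcodes. Among genes outside the set, mt-Co1 was at 1005, 413, 786 and 91.2 CPM in the same order. The nuclear gene row Gm13340 was at 76.3, 1420, 1343 and 2184 CPM, and Gm13341 at 14.7, 298, 317 and 489. Less uneven were Gapdh at 675, 327, 479 and 244 CPM and mt-Co3 at 155, 86.1, 151 and 63.9. The part of cell type and of hashtag staining in these shares was not tested. In the epithelial sums of assigned barcodes, Ftl1-ps1 was at 78.8 and 45.5 CPM in B6, 61.5 and 59.4 for BALB/c, and 55.7 and 21.6 for NOD, and was not called in any contrast. Rps13-ps1, Rpl36-ps12, Rps12-ps10, Rpl14-ps1 and Psma5-ps were likewise not called, with SEs of 0.335 or more, and their parents Rps13, Rpl36, Rps12, Rpl14 and Psma5 were all called higher in NOD than in B6 (0.85 to 1.07).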

How the data were processed

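Thymic cells of 6 mice, each with its own hashtag, were read as 1 pooled library. The deposited matrix holds UMI counts per gene and barcode, which the authors produced using Cell Ranger 7.0.0 against mm10, per the submitters' processing notes. The annotation release, and how multi-mapped reads and strand were treated, are not given in the sources used here. Hashtag counts were deposited in the same matrix by the authors, and 9 other hashtag columns were not used.

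Barcodes with at least 500 genes and under 15% mitochondrial UMIs were kept and given to a mouse at a hashtag share of 80% or more. This removes most barcodes holding cells of 2 mice, and no doublet caller was run. Passing barcodes were clustered with scanpy 1.11.5 and leidenalg 0.10.2 (2000 genes without members, parents, Xist and ribosomal protein, mitochondrial and H2 genes, 30 components, 15 neighbours, resolution 1), which gave 24 clusters, 8 of them leukocyte-like. The leukocyte rule (Ptprc in 25% or more and Krt8 in under 50% of barcodes) and the naming thresholds were set after the data were seen. A class needed 3 detected markers, and a cluster led by markers of another class or of low depth stayed unnamed.

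Counts were summed per mouse and tested with edgeR 4.0.16 (R 4.3.3; TMM, filterByExpr, robust quasi-likelihood, all 3 strains in 1 fit with 3 residual degrees of freedom), with Benjamini-Hochberg adjustment over all genes. Alternatives were DESeq2 1.42.0, its size factors, no filter, other hashtag and mitochondrial limits, a replicate block and leaving out each mouse. The log2 ratio of pseudogene to parent used a pseudocount of 0.5. Classes needed 10 barcodes in a mouse. Intervals are at 95%, cover counting error only, and floors are 3 counts over the 2 mice of a strain. The fitting steps were tested on simulated data. The GENCODE M21 annotation held 54435 of the 55487 gene identifiers, 52647 with the same symbol, and transcripts were aligned with blastn 2.17.0+.

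Named were, with their parents, the 20 called members of smallest adjusted p, the 10 with the most UMIs, the 3 rows on each side of the limit and the 10 pairs with the largest gap of 1 or more. The members and lists were chosen with earlier results of these data known.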

Additional observations from a re-analysis of the deposited data

Results flagged for a closer look

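These members had most of their UMIs in barcodes that passed the quality filters and were given to no mouse, data that no strain comparison uses. The share was 84.89% for Ftl1-ps1, 87.5% for Rps13-ps1, 86.81% for Rpl36-ps12, 86.86% for Rps12-ps10, 82.07% for Rpl14-ps1 and 85.35% for Rpl36-ps3. It was 86.38% for Rpsa-ps7, 89.3% for Psma5-ps, 80.36% for H2-T-ps, 85.37% for Actr3-ps, 84.34% for Rps4x-ps, 88.83% for Llph-ps1 and 88.34% for Rps15-ps2. Hsp25-ps1, a copy of a small heat shock protein gene, had the highest share in this list at 94.77%. The median share over genes with 30 or more UMIs was 34.5%, and over the members 46.4%.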

How the results depend on the processing

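No log2 difference of a named member or its parent that was called in the epithelial sums changed direction under any setting run. The next counts cover only calls of the named members, 20 of which were picked for the smallest adjusted p. Weaker calls, such as those of H2-T-ps and Olfr1372-ps1, are thus left out of them. Of 216 member values with 1 mouse left out, 183 kept their call and 33 lost it, and of 332 under other settings 329 kept it and 3 lost it. The calls of Rps24-ps3, Ndufa12-ps, Hmgb1-ps7, Rpl29-ps5, Rps18-ps6, Ubb-ps and Rps7-ps3 stayed past the threshold in all of these. Without the filter on low counts, members called between BALB/c and B6 numbered 20 in epithelial and 21 in all assigned barcodes, and between NOD and BALB/c 15 and 14. The class counts then were 2 in enterocyte-hepatocyte-like and 5 in keratinocyte-like cells. At a hashtag share of 60%, 9 members were called between NOD and BALB/c in epithelial barcodes, and 8 without cluster 2, an alternative chosen after seeing the data. At a share of 90%, 17 pairs differed by 1 or more between BALB/c and B6, against 11. With 1 mouse left out, calls in epithelial barcodes ranged from 4 to 12 (BALB/c against B6), 19 to 26 (NOD against B6) and 3 to 6 (NOD against BALB/c), and in all assigned barcodes from 1 to 11, 15 to 23 and 2 to 6. Pairs that differed by 1 or more ranged from 11 to 17, 22 to 25 and 9 to 13 in the same order. A lone remaining mouse is assumed to vary like the other strains. By DESeq2's test 25 ribosomal protein genes were higher and 4 lower in BALB/c than in B6, and 72 higher and 0 lower in NOD than in BALB/c. The cause of these changes was not tested. B6 and BALB/c mice share replicate numbers, and their deviations correlated at 0.067 over 15644 genes. A single difference per strain enters this correlation, so it cannot tell whether the numbers pair anything. With the replicate block 14 members were called between BALB/c and B6 in epithelial and 15 in all assigned barcodes, against 10 and 11 without it. The NOD label prints the same number for both hashtags, so no block was fitted there. Members under about 100 UMIs could seldom be tested, and 2 mice per strain limit every comparison.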
